A study of Rattus norvegicus with 4 samples.

Results

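The 6 genes Gap43, Cntn2, Ncam1, Nrxn2, Cspg5 and Bcan, of axon growth and neural adhesion, were followed over 4 oligonucleotide arrays of rat total RNA. They were picked by symbol with their signals already known, so their levels and differences are a description without a test. The array named 720 genes, and these 6 were read by 10 probe sets, short sets of oligonucleotides that each report 1 signal for a transcript. Ncam1 and Nrxn2 had 3 probe sets each, and the other genes 1 each. The RNA was labelled as coming from brain, adrenal medulla, the inner part of the adrenal gland, and the labels do not say whether the tissues were pooled. Each of the 4 groups held 1 array: undigested at day 1, digested at day 1, undigested at day 7 and digested at day 7 of a time course. The sources used here do not say what was digested, or give the strain, sex or age of the rats. The spread between samples of a group was not measured.

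These genes act at the surface of nerve cells and in the matrix around them. Gap43 codes for a protein on the inner face of the growth cone membrane, a protein kinase C substrate that is abundant while axons grow or regrow. Contactin 2 (Cntn2) and NCAM (Ncam1) are adhesion molecules of the immunoglobulin superfamily that act between axons and their neighbours, and NCAM is also carried by chromaffin cells, the hormone-releasing cells of the adrenal medulla. Neurexin 2 (Nrxn2) is a presynaptic adhesion protein that binds neuroligins across the synapse. Cspg5 and brevican (Bcan) are chondroitin sulphate proteoglycans of neural tissue, the first a membrane protein with an EGF-like domain, the second a part of the hyaluronan-bound matrix.

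Signals were scaled to a common median on each array, and a floor of 51.8 was set at the 20th percentile of all values. Of the 10 probe sets, 8 passed a filter that kept the brighter probe sets, those with a mean over the 4 arrays no lower than the median probe set's 229, and all 6 genes kept at least 1. Gap43 was the probe set at that median and so lay just inside. Of the 10, the nearest outside was M96376_at of Nrxn2, with a mean signal of 189. A difference was counted when it reached 2-fold either way (a log2 difference of 1). As the only yardstick of error, the spread among probe sets of 1 gene was pooled over 125 genes. This SD of a log2 difference was 0.32 for day 1 digestion, 0.52 for day 7 digestion, 0.52 for undigested samples between the days and 0.41 for digested samples between the days. Such probe sets read the same RNA, so this yardstick holds no spread between samples. Besides technical error it can hold differences between transcripts of a gene.

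**Figure D1:**
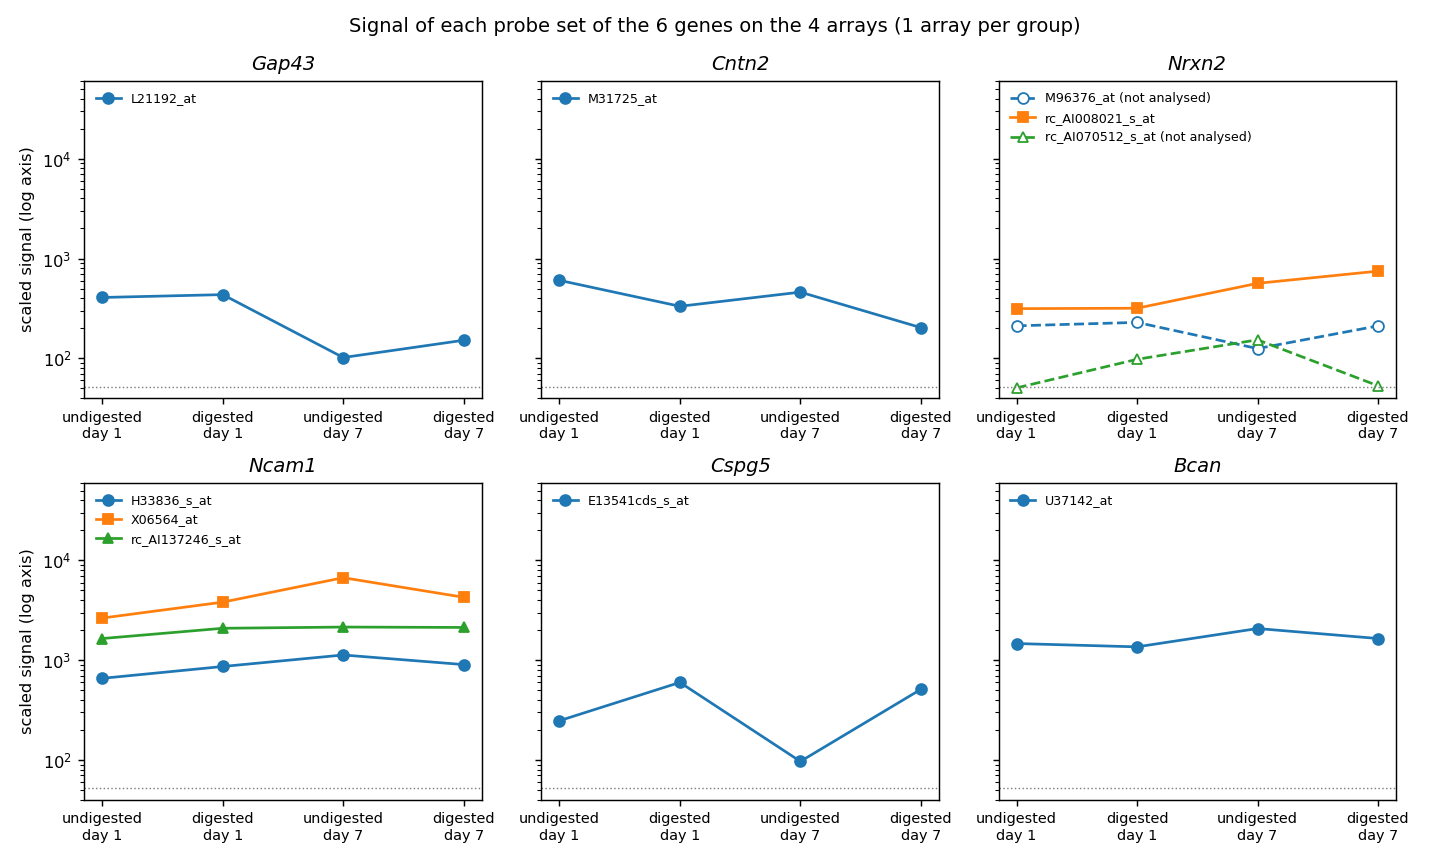
Scaled signal (log axis) of the 10 probe sets on the 4 arrays, 1 panel per gene and 1 point per array, with the floor of 51.8 as a dotted line and broken lines for the 2 probe sets of Nrxn2 that failed the filter. Gap43 is low on both day 7 arrays, Cspg5 is low on both undigested arrays, and the probe sets of Nrxn2 differ in direction.

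The digested day 7 array had low hybridisation controls, with a median log2 difference of -1.32 from the other 3 arrays over 9 probe sets. The undigested day 7 array had a 3′ to 5′ signal ratio of beta-actin of 2.66, against 1.35 to 1.48 on the others, a ratio that rises when labelled RNA is less complete. The same ratio of GAPDH was 1.18 there against 1.01 to 1.10, and that of hexokinase 1.40 against 1.05 to 1.31. Chromaffin markers were read for 5 of 10 listed genes, and their summed signal ran from 237332 to 351949. Neuron markers were read for 8 of 15, with sums from 121790 to 197547. The chromaffin marker Slc18a2 and the neuron marker Gad1 failed the filter. Astrocyte markers were read for 4 of 7 (sums of 3104 to 7304) and oligodendrocyte markers for 4 of 6 (2453 to 3476). Of these glial markers S100b, Slc1a2, Mbp and Mog failed the filter. Of 5 Schwann cell markers 3 were read and only Ngfr passed, with sums from 23530 to 27473. Itgam, the only 1 of 5 macrophage markers on the array, and Vim, the only 1 of 6 fibroblast markers, failed the filter, and Vim lay at the floor on every array. None of 7 markers of adrenal cortex or 5 of endothelium was on the array. In RNA from whole samples, fewer cells of a type and less RNA per cell cannot be told apart.

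Gap43, the growth cone gene, was the member with the largest day difference. Its signals were 407 (undigested) and 435 (digested) at day 1, and at day 7 they were 102 undigested and 152 digested. Both day 1 signals were above both day 7 signals, and such a gap between the days was seen in 49.8% of all analysed probe sets. The day 7 signal was 4.0-fold lower in undigested samples (log2 -2.00) and 2.86-fold lower in digested samples (log2 -1.52), against yardsticks of 0.52 and 0.41. Among 632 analysed probe sets these ranked 8th and 14th from the lowest, in that order. The digestion difference was small at day 1 (log2 0.09, between -0.03 and 0.09 over the ways of scaling) and 1.49-fold upwards at day 7 (log2 0.58), close to the yardstick of 0.52. The undigested day 7 signal of 102 lay under 2 times the floor (103.7), so the size of the undigested difference is imprecise. It ran from a log2 of -2.23 to -1.71 over the scalings and the offset tried. The digested difference does not use that array, and ran from -1.52 to -1.34. It does use the digested day 7 array, whose hybridisation controls were low. Among the cell type markers, the astrocyte sum was also lower at day 7, at 7073 (undigested) and 7304 (digested) at day 1 against 3104 and 3821 at day 7. That was Glul, the glutamine synthetase gene, at 6550 and 6904 against 2499 and 3356, while S100b and Slc1a2 were higher at day 7 in both states and Slc1a3 had log2 differences of -0.11 and 0.23. The summed neuron markers went from 185168 and 197547 to 154761 and 121790. Of the 8 neuron markers 2 were lower at day 7 in undigested samples (Snap25 and Nefm) and 6 higher, and in digested samples 7 were lower and Gad1 lay at the floor at both days. Their part in the result was not tested.

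Cntn2, the axonal contactin, was lower in digested than in undigested samples at both days. Its signals were 604 (undigested) and 332 (digested) at day 1, and 460 and 203.0 in the same order at day 7. Both undigested signals were above both digested signals, so the digestion states did not overlap, which held for 23.4% of all analysed probe sets. The difference was 1.82-fold at day 1 (log2 -0.86, against a yardstick of 0.32) and 2.27-fold at day 7 (log2 -1.18, against 0.52). Only the second reached 2-fold, and over the scalings and the offset the pair ran from -0.99 to -0.80 and from -1.18 to -1.04. Within each digestion state the day 7 signal was the lower, by 1.31-fold in undigested samples (log2 -0.39) and 1.64-fold in digested samples (log2 -0.71). The undigested difference was smaller than the yardstick of 0.52 with median scaling. It ran from -0.62 to -0.37 over the scalings and the offset, and so passed the yardstick under some. All 4 signals of Cntn2 lay above 2 times the floor.

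Cspg5, the membrane proteoglycan, ran the other way. It read 248 (undigested) and 599 (digested) at day 1, and 96.8 and 511 in the same order at day 7. Both digested signals stood above both undigested signals, and the digestion states were apart in 23.4% of all analysed probe sets. The digested sample was 2.42-fold higher at day 1 (log2 1.27) and 5.27-fold higher at day 7 (log2 2.40), ranks 6 and 5 from the highest of 632. The widening between the days came from the undigested side, where the signal was 2.56-fold lower at day 7 (log2 -1.35), while the digested signals differed by a log2 of -0.23 between the days. The change of the digestion difference was a log2 of 1.12, and 0.90 to 1.40 over the scalings and the offset. The undigested day 7 signal lay under 2 times the floor, so the 5.27-fold is imprecise (4.21-fold to 5.83-fold over those settings). That fold also compares the array with the beta-actin ratio of 2.66 and the array with hybridisation controls at -1.32. The day 1 difference uses neither of these day 7 arrays and was between 2.22-fold and 2.42-fold. The probe set's name ends in _s_at, a suffix for sets that can read more than 1 transcript. The same suffix is carried by rc_AI008021_s_at and rc_AI070512_s_at of Nrxn2 and by rc_AI137246_s_at and H33836_s_at of Ncam1.

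Bcan, the matrix proteoglycan, had the narrowest range among the genes read by a lone probe set, 1.53-fold over the 4 arrays. Its signals were 1469 (undigested) and 1361 (digested) at day 1, and 2077 and 1650 in the same order at day 7. Both day 7 signals were above both day 1 signals, a gap seen in 49.8% of all analysed probe sets. After quantile normalisation or cyclic loess that gap was lost. Within each digestion state day 7 stayed the higher under those scalings, by log2 differences of 0.17 to 0.34. In each day the undigested signal was above the digested one. Its log2 differences were -0.11 and -0.33 for digestion at day 1 and day 7, and 0.50 and 0.28 for the day in undigested and digested samples. Each was smaller than the yardstick for its comparison. The proteoglycans Cspg5 and Bcan differed in direction for digestion at both days, by log2 differences of 1.27 against -0.11 and 2.40 against -0.33.

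The promoter windows of Cntn2, which spans 2.98-fold over the arrays, and of Bcan, which spans 1.53-fold, show sequence at the start of a gene that differed with digestion and of a gene that did so less. They are the members matched in the RefSeq promoter table of build GRCr8, which runs from 250 bases before to 50 after each gene's start. That of Cntn2 lies at chr13:46527976-46528275 and that of Bcan at chr2:175765265-175765564, both on the minus strand. Capitals mark matches to the E-box (CANNTG) or the GC box (GGGCGG), each searched on both strands, and no matches overlapped.
Cntn2: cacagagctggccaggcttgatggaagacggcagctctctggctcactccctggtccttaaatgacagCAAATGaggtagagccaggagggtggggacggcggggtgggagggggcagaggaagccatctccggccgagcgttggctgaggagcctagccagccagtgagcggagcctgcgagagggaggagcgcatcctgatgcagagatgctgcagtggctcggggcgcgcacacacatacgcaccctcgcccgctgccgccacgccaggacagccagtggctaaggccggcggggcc
Bcan: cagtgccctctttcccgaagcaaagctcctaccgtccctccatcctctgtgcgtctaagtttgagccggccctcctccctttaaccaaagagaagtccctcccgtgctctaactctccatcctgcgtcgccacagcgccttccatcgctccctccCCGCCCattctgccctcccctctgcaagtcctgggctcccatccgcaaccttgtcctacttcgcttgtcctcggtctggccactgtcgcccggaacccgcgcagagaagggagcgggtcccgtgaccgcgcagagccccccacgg
Cntn2 held 1 E-box, CAAATG, which starts 182 bases before the gene's start, and 0 GC boxes, while Bcan held 1 GC box, on the other strand, and 0 E-boxes. Among 33469 windows of the same length 72.1% held an E-box and 33.1% a GC box. The GC content was 67% for Cntn2 and 64% for Bcan, against a median of 51.7%. Neither window held TATAAA, found in 14.2% of all windows, or CCAAT, found in 37.5%. These matches are a description of letters, and no binding was measured.

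Ncam1 was highest on the undigested day 7 array by 2 of its 3 probe sets under each scaling, and by the other, rc_AI137246_s_at, only under some. The brightest, X06564_at, read 2645 (undigested) and 3818 (digested) at day 1, and 6710 and 4270 in the same order at day 7. The second, rc_AI137246_s_at, read 1649 and 2089 at day 1 and 2149 and 2130 at day 7, and H33836_s_at read 658 and 865 at day 1 and 1128 and 904 at day 7. With median scaling all 3 sets gave the same order of the arrays, from undigested day 7 down through digested day 7 and digested day 1 to undigested day 1. In the values as deposited rc_AI137246_s_at read 1976 on the undigested day 7 array, below 2165 on the digested day 7 and 2067 on the digested day 1 array. The sets differed in size. In undigested samples the day difference was a log2 of 1.34, 0.38 and 0.78 for X06564_at, rc_AI137246_s_at and H33836_s_at, an SD between probe sets of 0.48 (n = 3). Only the first passed 2-fold, at 2.54-fold. In digested samples the same differences were 0.16, 0.03 and 0.06, all smaller than the yardstick of 0.41.

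The digestion difference of Ncam1 was above 0 at day 1 by all 3 probe sets. At day 7 it was beyond the yardstick only by X06564_at, and not under each scaling. At day 1 its probe sets gave log2 differences of 0.34 to 0.53, with a mean of 0.42 ± 0.10 (SD over n = 3 probe sets), each above the yardstick of 0.32 with median scaling, although rc_AI137246_s_at and H33836_s_at came down to 0.16 and 0.27 under another scaling. At day 7 they gave -0.65 to -0.01, with a mean of -0.33 ± 0.32 (SD over n = 3 probe sets), and the values of H33836_s_at (-0.32) and rc_AI137246_s_at (-0.01) were smaller than the yardstick of 0.52. That of X06564_at ran from -0.69 to -0.51 over the scalings and the offset. As deposited (-0.51) it was also inside the yardstick. The change was a log2 of -1.18 by X06564_at, -0.71 by H33836_s_at and -0.35 by rc_AI137246_s_at, whose day 7 difference turned positive under another scaling (-0.05 to 0.13). The day 7 difference uses the undigested day 7 array, whose beta-actin ratio, but not that of GAPDH or hexokinase to the same extent, was above the others. On that array the summed chromaffin markers were also highest, at 351949 against 270424, 288206 and 237332 on the undigested and digested day 1 and the digested day 7 arrays. That sum was mostly Th (256725) and Ddc (88923). With median scaling Dbh was highest there too, and Penk read 2012 against 1973 on the digested day 7 array. Slc18a2, which failed the filter, read 113 there against 161 on the digested day 7 array. The part of these markers was not tested.

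Nrxn2, the synaptic adhesion gene, was higher at day 7 by its brightest probe set, and neither of its other probe sets was higher in both digestion states. The analysed set, rc_AI008021_s_at, read 314 (undigested) and 318 (digested) at day 1, and 564 and 747 in the same order at day 7. Both day 7 signals were above both day 1 signals, and a gap between the days was seen in 49.8% of all analysed probe sets. The day 7 signal was higher by 1.79-fold in undigested samples (log2 0.84, against a yardstick of 0.52) and 2.35-fold in digested samples (log2 1.23, against 0.41). The set M96376_at, under the filter with a mean signal of 189, read 212 and 229 at day 1 and 125 and 211 at day 7. Its day differences were a log2 of -0.76 in undigested samples and -0.12 in digested samples, opposite in sign to those of the brighter set. The dimmest set, rc_AI070512_s_at, read 50.6 and 97.7 at day 1 and 153 and 53.1 at day 7, under 2 times the floor on 3 of the 4 arrays. It was higher at day 7 in undigested samples (log2 1.56) and lower in digested samples (log2 -0.88). The SD of the day difference over the 3 sets was 1.19 in undigested and 1.07 in digested samples, above the yardsticks of 0.52 and 0.41. For digestion, the analysed set gave log2 differences of 0.01 at day 1, which turned negative under another scaling (-0.11), and 0.41 at day 7.

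**Figure D2:**
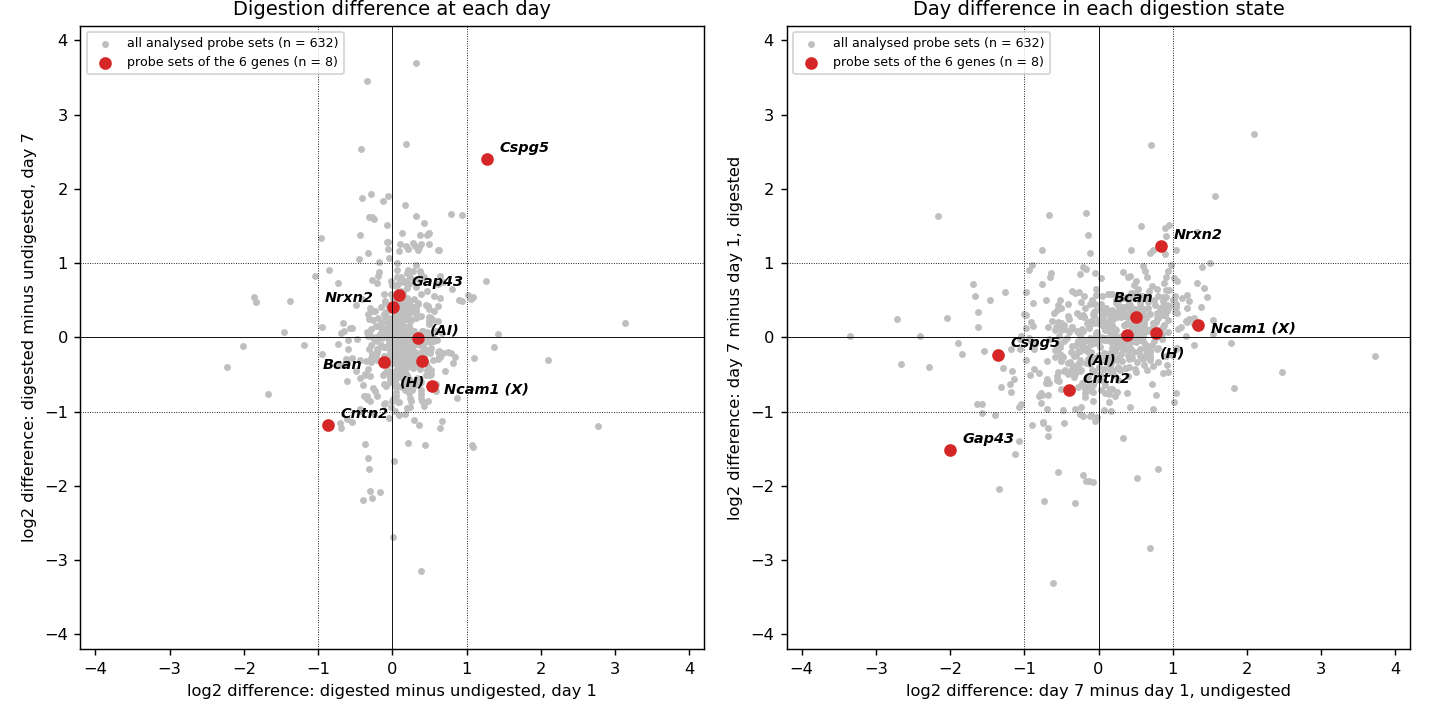
Log2 differences of the 8 analysed probe sets of the 6 genes (red) among all 632 analysed probe sets (grey), with dotted lines at 2-fold. On the left the digestion difference at day 1 (x axis) is set against day 7 (y axis), and on the right the day difference in undigested (x axis) against digested samples (y axis); X, H and AI mark the Ncam1 sets X06564_at, H33836_s_at and rc_AI137246_s_at. Cspg5 lies beyond 2-fold at both days on the left, and Gap43 in both states on the right.

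Counted over the 8 analysed probe sets, digestion at day 1 gave 1 past 2-fold, that of Cspg5, beside 3.48% of all analysed probe sets. At day 7 it gave 2, Cspg5 higher and Cntn2 lower, beside 11.4%. The day difference in undigested samples gave 3, with the X06564_at set of Ncam1 higher and Gap43 and Cspg5 lower, beside 13.3%. That in digested samples gave 2, Nrxn2 higher and Gap43 lower, beside 8.07%. The digestion states did not overlap for 2 of the 8 sets (Cntn2 and Cspg5), beside 23.4% of all analysed, and the days for 6 of the 8 (Gap43, Bcan, the analysed set of Nrxn2 and all 3 of Ncam1), beside 49.8%. Under the other scalings, a check added after the values were seen, the days stayed apart for 4 or 5 of the 8. The exceptions were rc_AI137246_s_at of Ncam1 in each and Bcan after quantile normalisation and cyclic loess. The digestion states were apart for 3, Cntn2 and Cspg5 in each, with rc_AI137246_s_at as deposited and Bcan otherwise. As the genes were chosen for their differences, nothing is read from these counts. The median log2 difference of the 8 sets was 0.22, -0.17, 0.44 and 0.05 in that order of comparisons, and that of all 632 was 0.12, -0.05, 0.17 and 0.04. In the values as deposited the median of all was -0.0056 for digestion at day 1 and -0.065 for the day in undigested samples, and changes are to be read against these shifts. Of the 8 sets, 6 had their highest or lowest signal on the undigested day 7 array, as did 64.6% of all 632. The day 7 digestion difference and the undigested day difference share that array.

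Few other genes of the same kinds were on the array. Of 5 lists, for axon growth, guidance, neural adhesion, synaptic adhesion and matrix proteoglycans, 22 genes were measured and 7 passed the filter: Map1b, Nrp1, Mag, L1cam, Dlg4, Agrn and Sdc3. By list, 1 of 1 growth gene passed, 2 of 4 guidance genes, 1 of 7 neural adhesion genes, 1 of 7 synaptic genes and 2 of 3 proteoglycans. Only Nrp1, a receptor of semaphorins that guide axons, reached 2-fold in any comparison. Its signals were 616 (undigested) and 720 (digested) at day 1, and 1432 and 852 in the same order at day 7. It was highest on the undigested day 7 array, as Ncam1 was by X06564_at, and 2.32-fold higher there than at day 1 (log2 1.22). With median scaling L1cam and Agrn were highest on that array too, as were 38.3% of all 632 analysed probe sets. Over the 7 genes, digestion gave log2 differences of -0.10 to 0.56 at day 1 and -0.75 to 0.36 at day 7. The day gave -0.33 to 1.22 in undigested and -0.96 to 0.34 in digested samples. Their medians were 0.10, -0.11, -0.06 and 0.07 in that order, and those of all 386 named genes were 0.10, -0.11, 0.19 and 0.05.

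The genes with the most similar profile were found among 379 named genes by the root mean square difference of log2 signals, each centred on its mean over the 4 arrays. Gap43 was nearest to Glul (0.28) and Ckb, the brain-type creatine kinase gene (0.28). Cntn2 was nearest to Clcn4, a chloride transporter gene (0.24), and Hspb2, a small heat shock protein gene (0.28). Cspg5 was nearest to the phosphodiesterase gene Pde4c (0.29) and the arrestin gene Arrb1 (0.31). The closest matches were those of the other pair. Ncam1, by X06564_at, lay 0.057 from Dbh, which codes for the enzyme that makes noradrenaline, and 0.068 from Smad4, a TGF-beta signalling gene. Nrxn2, by rc_AI008021_s_at, lay 0.052 from the neuropeptide Y receptor gene Npy1r and 0.057 from the metallothionein gene Mt2A. The other probe sets of Ncam1 and Nrxn2 were not matched in this way. Dbh read 1711 and 2461 at day 1 and 4175 and 2961 at day 7, undigested before digested, the same order of arrays as Ncam1. The median distance of all 379 genes from a member ran from 0.47 for Ncam1 to 1.10 for Cspg5. With 4 arrays a short distance is a description of these libraries.

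**Figure D3:**
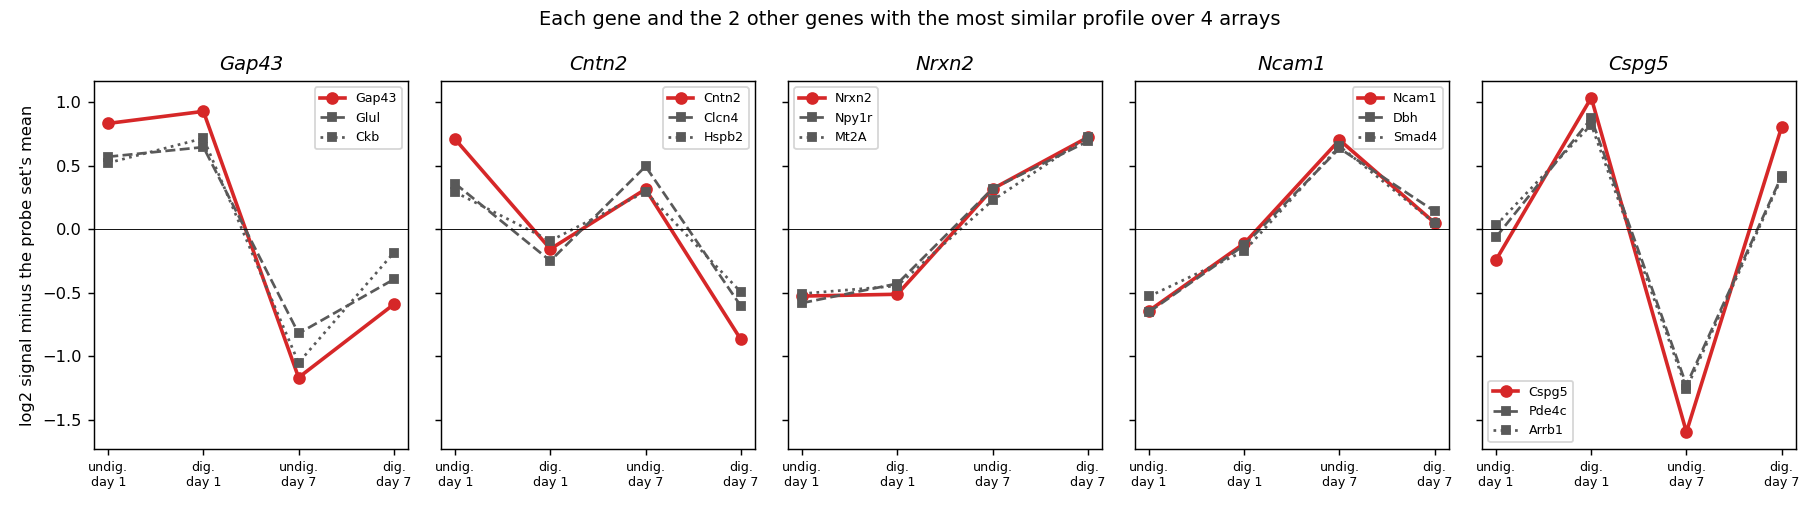
Log2 signal minus the probe set's mean over the 4 arrays (y axis) on each array (x axis), for the 5 genes whose brightest probe set spans at least 2-fold (red) and the 2 genes nearest to each (grey). By these brightest probe sets Ncam1 and Nrxn2 lie within 0.07 of both their nearest genes, and Gap43, Cntn2 and Cspg5 at 0.24 to 0.31.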

How the data were processed

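The authors deposited signal intensity on a linear scale for each probe set of 4 arrays, 1 per group. Their signal algorithm and scaling were not stated in the sources used here. The mean after trimming 2% at each end was 2515 to 2516 on every array. Of 1322 probe sets 59 were controls, and of the other 1263, 1137 named 1 gene, 8 several and 118 none. All 6 symbols matched by gene identifier in the GRCr8 RefSeq table. Arrays were scaled to a common median (factors 0.925 to 1.09), floored and taken to log2. Cyclic loess used limma 3.58.1 in R 4.3.3, and the other steps, tested on simulated data, matplotlib 3.10.9, scipy 1.17.1, pandas 2.3.3 and numpy 2.4.6 in Python 3.11.15. The number of arrays limits the precision. The 6 genes and the gene lists were chosen with earlier results of these data known. Every probe set of the 6 genes is named. For each gene spanning at least 2-fold the 2 nearest genes are named, and up to 4 genes per list that reached 2-fold. The alternatives were the values as deposited, quantile normalisation, cyclic loess, an offset of 32 in place of the floor, no filter, the brighter part of the analysed set, a 1.5-fold threshold and 1 value per gene.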

Additional observations from a re-analysis of the deposited data

How the results depend on the processing

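Across the alternatives 245 log2 differences of the 6 genes were recomputed, and each moved by less than the SD between probe sets of a gene; of those at least 2-fold, none changed sign. The filters change no difference by construction. Taking 1 value per gene can change only those of Ncam1, the only gene with more than 1 analysed set. No filter, the brighter part and 1 value per gene gave 40, 15 and 30 of the 245. Counts past 2-fold moved more. Without the filter, 208, 273, 284 and 242 of 1263 probe sets passed for digestion at day 1, at day 7, and the day in undigested and in digested samples, against 22, 72, 84 and 51. Among the 316 brightest these were 0, 12, 30 and 11, and of the 3 probe sets of the 6 genes left there, 0, 0, 1 and 0 passed. At 1.5-fold 73, 176, 235 and 150 passed, with 2 sets of the 6 genes for digestion at day 1 and 5 for the day in undigested samples. With 1 value per gene, 50 and 33 of 386 passed for the day in undigested and digested samples. The split of higher and lower was 13 and 9 for digestion at day 1, but with either quantile normalisation or cyclic loess 11 and 12, and as deposited 7 and 12. At day 7 it was 44 and 28, and 53 and 20 as deposited. For the day in undigested samples it was 46 and 38, but with cyclic loess 27 and 50, with quantile normalisation 29 and 52 and as deposited 20 and 59. No paired analysis was possible because the groups compared share fewer than 2 replicate numbers; an additive fit of digestion and day was left out, as the genes were chosen with their values known. No probe set was shown to be above background, and signals under 2 times the floor give imprecise folds.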
